A study of Mus musculus with 16 samples.

Results

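The metalloproteinases of the Mmp, Adam and Adamts families and the 4 Timp genes, which encode their tissue inhibitors, were described in femur and white adipose tissue of mice. Members were the probes whose symbol in the platform annotation is Mmp, Adam or Adamts followed by a number, with a or b where a gene has copies, or Timp followed by 1 to 4. They made up 66 of 16593 named genes and 99 of 25697 probes: 20 Mmp, 28 Adam, 14 Adamts and 4 Timp genes. Gene expression had been measured on 16 Illumina bead arrays, 4 in each of 4 groups: femur of AEA001 mutants, femur of wild types, white adipose tissue of AEA001 mutants and white adipose tissue of wild types. The 8 mice, 17 weeks old, were males of the inbred C3HeB/FeJ strain, and each gave both tissues. AEA001 is a line from ENU mutagenesis that carries a mutation of Ednra, which encodes an endothelin receptor, and the title of the series calls it a model of osteoporosis. Whether mutants carried 1 or 2 mutant alleles is not given in the sources used here, and Ednra itself is not analysed here. Each replicate is a mouse with its own identifier in the labels, except that wild type replicate 3 and AEA001 mutant replicate 4 carry the same identifier.

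Matrix metalloproteinases (MMPs) are zinc enzymes that are made as inactive precursors and cut collagens, proteoglycans and other matrix proteins once a propeptide has been removed. ADAMs are membrane-bound relatives that release growth factors, cytokines and receptors from the cell surface, and ADAMTS enzymes are secreted relatives that cut proteoglycans and process procollagen. The TIMPs bind the active site and block the enzymes. In bone, collagenase and gelatinase activity belongs to the removal of mineralized cartilage and matrix during growth and remodelling, and in fat the enzymes and inhibitors remodel the matrix around expanding adipocytes.

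Sequences are shown first for a run of neighbouring Mmp genes, because they hold Mmp13, the member that differed most between femur and fat, and Mmp12, the member with the widest genotype difference in fat. On mouse chromosome 9, 10 Mmp genes follow each other, in the order Mmp13, Mmp12, Mmp1b, Mmp3, Mmp1a, Mmp10, Mmp8, Mmp27, Mmp20 and Mmp7. Of these, 9 had a probe, and Mmp27 is not analysed here. The sequence TGANTCA, where N is any base, is the binding motif of the transcription factor AP-1 and reads the same on both strands. It was searched in the RefSeq promoter windows of build GRCm38.p6, which run from 250 bases before to 50 bases after a gene's start. A match lay in the window of 8 of the 9 genes and in that of 2425 of 27025 genes in the whole table, or 8.97%. Mmp8 had no such letters in its window. Of all 66 members, 39 had a promoter in the table and 13 of those held a match, or 33.3%. A match describes the letters and shows neither binding nor a cause. The 8 windows of 27 bases follow 5′ to 3′ along the strand of the gene, with the match in capitals.
Mmp13 (chr9:7272469-7272495, + strand): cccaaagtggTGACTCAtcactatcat
Mmp12 (chr9:7347320-7347346, + strand): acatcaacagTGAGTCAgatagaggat
Mmp1b (chr9:7388103-7388129, - strand): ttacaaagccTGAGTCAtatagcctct
Mmp3 (chr9:7445766-7445792, + strand): gaagcaattaTGAGTCAgttttcgggt
Mmp1a (chr9:7464058-7464084, + strand): ttgtcaaccaTGAGTCAcatagcctct
Mmp10 (chr9:7502269-7502295, + strand): agcacccatgTGAGTCAtgcttagtga
Mmp20 (chr9:7628126-7628152, + strand): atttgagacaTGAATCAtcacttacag
Mmp7 (chr9:7692017-7692043, + strand): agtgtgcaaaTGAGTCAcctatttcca

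Of the 8 matches 6 have the same letters. That of Mmp13, with C at the N, is the reverse complement of those 6 and so the same letters on the other strand, and that of Mmp20 has A at the N. The table holds a second window for Mmp12 and for Mmp7, and neither of these has a match. Counted from the gene start, the match begins 35 bases upstream in Mmp13, 44 in Mmp12, 46 in Mmp3, 63 in Mmp10 and Mmp7, 73 in Mmp1a, 93 in Mmp1b and 95 in Mmp20. For the pair of genes that the results turn on, the 250 bases before the start are given in full, again with the match in capitals.
Mmp13 (chr9:7272264-7272513, + strand): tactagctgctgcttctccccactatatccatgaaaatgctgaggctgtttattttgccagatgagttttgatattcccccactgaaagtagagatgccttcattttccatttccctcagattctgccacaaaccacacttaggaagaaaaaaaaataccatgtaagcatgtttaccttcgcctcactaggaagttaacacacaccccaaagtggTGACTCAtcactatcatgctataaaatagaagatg
Mmp12 (chr9:7347124-7347373, + strand): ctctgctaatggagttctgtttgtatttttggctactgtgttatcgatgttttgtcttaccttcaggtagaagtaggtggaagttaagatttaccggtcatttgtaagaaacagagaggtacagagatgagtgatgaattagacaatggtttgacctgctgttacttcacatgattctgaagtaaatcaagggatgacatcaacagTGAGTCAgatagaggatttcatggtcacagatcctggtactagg

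The neighbours did not share a pattern of expression. Mmp13 was high on all 8 femur arrays, Mmp12 exceeded an intensity of 16 on all 8 white adipose arrays and on 0 of 8 femur arrays, and Mmp8 did so on 7 femur arrays and on 0 white adipose arrays. Mmp3 and Mmp1a were measured in both tissues. Mmp1b, Mmp10 and Mmp20 did not exceed 16 on any of the 16 arrays, and Mmp7 did so on 3, all of them white adipose arrays of AEA001 mutants. The same motif stood beside genes with high, low and no measurable signal.

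**Figure D1:**
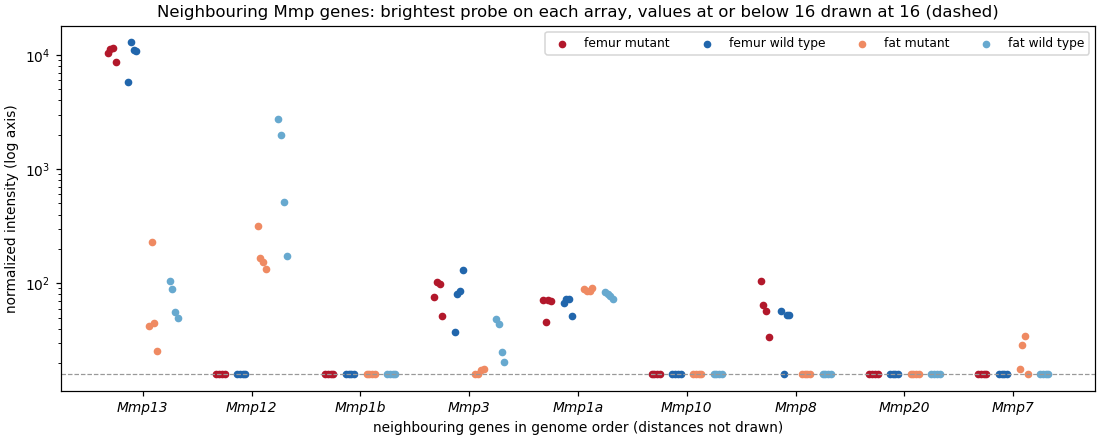
Normalized intensity (log axis) of the brightest probe of 9 neighbouring Mmp genes of chromosome 9, in genome order with distances not drawn; each point is 1 array, and values at or below 16 lie on the dashed line. Mmp13 is at 5839 or more on all 8 femur arrays, and Mmp12 lies above the dashed line on the 8 white adipose arrays and on none from femur.

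Values are the intensities as normalized by the authors, on a linear scale with negative values after background subtraction. The arrays have the same distribution, with medians between 25.2 and 25.3, so a difference in total RNA is not visible, and the number of arrays rather than a read depth limits the precision. Femur arrays carried markers of bone, cartilage, marrow and muscle: the summed intensity of 12 granulocyte markers was 199718 to 219747 in mutant femurs and 164262 to 196570.2 in wild-type femurs. White adipose arrays had adipocyte sums of 91795 to 97912 in mutants and 93416 to 103305 in wild types. Among the white adipose arrays that of mutant replicate 2 stood apart, with a granulocyte sum of 22763 against 3639.8 to 5052 on the other 3 mutant arrays. Its sum of 7 skeletal muscle markers was 12332, against 5806 to 6610 on the other 3 mutant arrays and 5408 to 7036 in wild types. The osteoblast transcript Bglap was at 242 there. The sum of 8 osteoblast markers, 2899, lay within the wild-type range of 2895 to 5067. Yet 5 of the 8, Bglap among them, exceeded 16 on no wild-type white adipose array. On the white adipose arrays of wild type replicates 1 and 2, the summed intensity of 7 macrophage markers was 13532 and 12179.7, above the other 6 arrays of that tissue.

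A gene was taken as measured in a tissue when its probe exceeded 16 on at least 4 of the 8 arrays, and a gene with several such probes is given by the brightest. By this rule femur had 34 measured members and white adipose tissue 36, with 30 shared by both, 4 in femur alone, 6 in white adipose tissue alone and 26 in neither. Of the 26, 17 did not exceed 16 on any array. The 4 Timp genes were measured in both tissues. Femur had 13 and white adipose tissue 12 of the 20 Mmp genes, each had 8 of the 14 Adamts genes, and they had 9 and 12 of the 28 Adam genes. Of the 28 Adam genes 16 are known mostly from testis and epididymis, and 13 of these were measured in neither tissue. Adam10, a widely used sheddase of Notch and other surface proteins, has a single probe here, which exceeded 16 on 1 of 16 arrays. The other members measured in neither tissue were Mmp1b, Mmp7, Mmp10, Mmp20, Mmp21, Mmp24, Adam11, Adam28, Adamts3, Adamts12, Adamts17 and Adamts20. A probe that stays near background gives only an upper bound on its transcript.

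Tissue was the larger axis of difference. Differences are given on the log2 scale, femur minus white adipose tissue or AEA001 mutant minus wild type, with the standard error (SE) of limma from 4 arrays per group, after intensities below 16 were set to 16. Calls are by limma with Benjamini-Hochberg adjustment over all measured probes at a threshold of 0.05. Among mutants 29 of 37 members passed, or 78.4%, against 76.6% of all genes: 11 were higher and 18 lower in femur, beside 35.6% and 41.0% of all genes. Among wild types 24 of 36 passed, or 66.7%, against 74.4% of all genes: 7 were higher and 17 lower in femur, beside 36.6% and 37.8% of all genes. The share of members that differed between tissues lay near that of all genes. The median difference of the members was -0.21 in mutants and -0.37 in wild types, against -0.09 and -0.03 over all genes. A member measured in 1 tissue alone passed the filter through that tissue, so the 30 measured in both were also counted on their own. Among mutants 9 of the 30 were higher and 15 lower in femur, beside 34.5% and 41.0% of all genes measured in both tissues. Among wild types 6 were higher and 14 lower in femur, beside 35.2% and 38.1% of such genes. Of the 35 members tested in both genotypes, 6 were higher and 16 lower in femur in each of them, beside 31.6% and 33.9% of all genes tested in both.

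**Figure D2:**
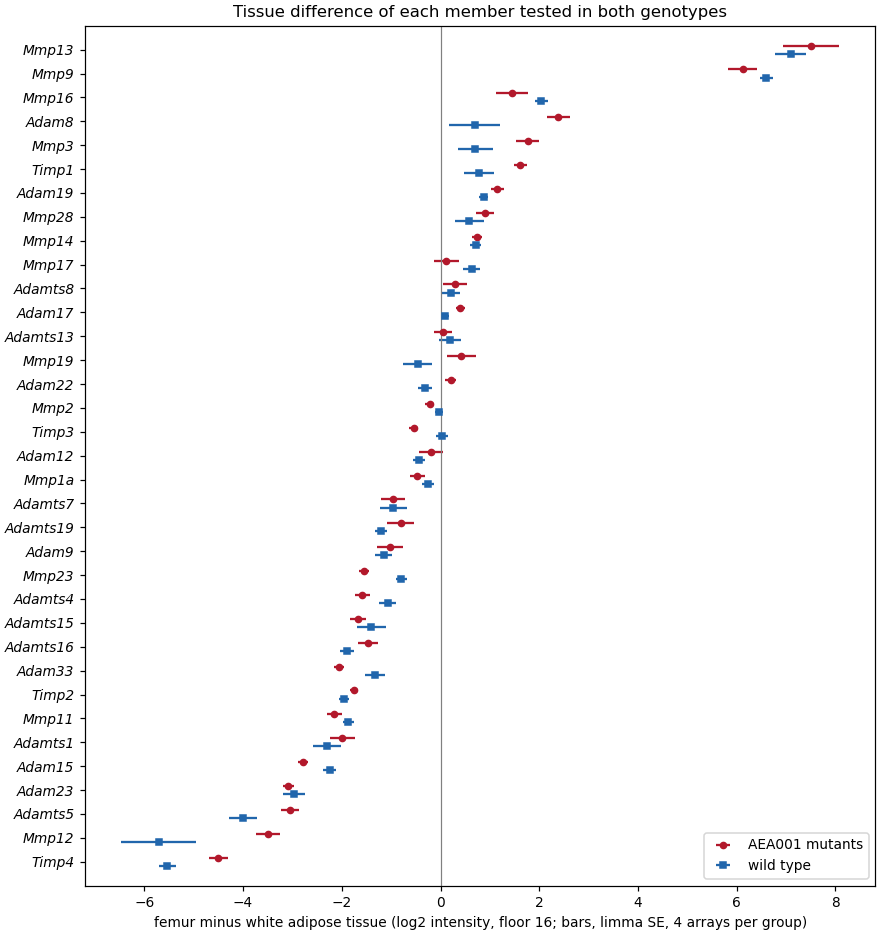
Difference between femur and white adipose tissue (log2 intensity, floor of 16) for each member tested in both genotypes, with points for AEA001 mutants (red circles) and wild types (blue squares) and bars for the limma SE, 4 arrays per group. Mmp13 and Mmp9 stand at 6 or more log2 units on the femur side, and Timp4, Mmp12 and Adamts5 at -3 or below.

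Genotype made no call among the members within either tissue. In femur 0 of 34 members passed limma's threshold, against 0 of all 9789 genes (0% called). At an unadjusted limma p under 0.05 there were 4 of 34 (11.8%, against 15.7% of all genes), 1 higher and 3 lower in mutants, beside 6.53% and 9.17% of all genes. In white adipose tissue 0 of 36 members passed, against 0 of all 9878 genes (0% called), and 12 had an unadjusted limma p under 0.05 (33.3%, against 25.5% of all genes), 2 higher and 10 lower in mutants, beside 13.3% and 12.2% of all genes. The mutant and wild-type arrays did not overlap for 2 members in femur (5.88%, against 9.73% of all genes), 0 of them higher and both lower in mutants, beside 4.23% and 5.50% of all genes. They did not overlap for 8 members in white adipose tissue (22.2%, against 15.9% of all genes), 3 of them higher and 5 lower in mutants, beside 8.53% and 7.37% of all genes. The median genotype difference of the members came to -0.05 in femur and -0.09 in white adipose tissue, against -0.03 and 0.03 over all genes. When the genotype difference was compared between the tissues, in a joint limma fit in which the animal was a random block, 2 of 40 members passed (5%, against 4.80% of all genes): Mmp23 and Timp4. For the genotype effect in femur 1 of 14281 probes on the whole array passed, and 702 passed without wild type replicate 3; the members' count then was 1, Adam15.

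**Figure D3:**
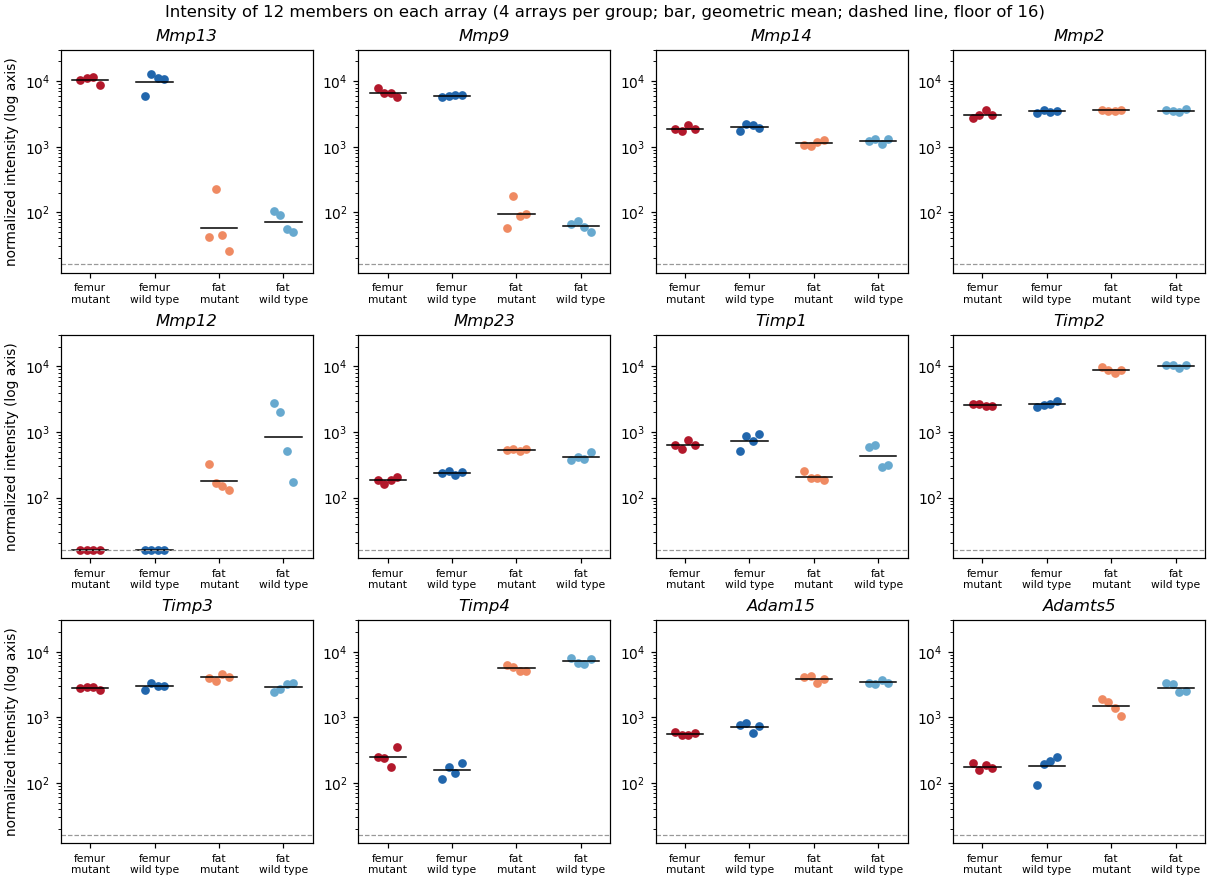
Normalized intensity (log axis) of 12 members in the 4 groups, AEA001 mutant and wild-type femur and then AEA001 mutant and wild-type white adipose tissue (titled fat); each point is 1 array, the bar is the geometric mean and the dashed line the floor of 16. Mmp13 and Mmp9 separate the tissues by about 2 decades, Mmp12 is at the floor on all 8 femur arrays, and the genotypes lie close together in most panels.

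Among the interstitial collagenases, which make the first cut in fibrillar collagen, Mmp13 set femur apart. Its intensity was 10493, 11337, 11560.3 and 8755 in mutant femurs, against 5839, 12919.6, 11166 and 10794 in wild-type femurs. White adipose tissue had 41.9, 229.6, 44.9 and 25.4 in mutants, against 104, 89.7, 56.3 and 49.8 in wild types. Every femur array lay far above every white adipose array, while the genotypes overlapped in each tissue. Femur exceeded white adipose tissue by 7.51 ± 0.58 in mutants (limma adjusted p = 1.95e-06) and by 7.09 ± 0.31 in wild types (limma adjusted p = 5.14e-08). Mmp13 is made by osteoblasts and hypertrophic chondrocytes, and all 7 measured osteoblast markers were likewise higher in femur in both genotypes; their part in the result was not tested. In these bulk samples fewer cells of a type and less RNA per cell cannot be told apart. The genotype difference of Mmp13 was 0.10 ± 0.23 in femur (limma adjusted p = 0.862), and the value of 5839 of wild type replicate 1 decided its sign, which turned to -0.15 without it; another probe gave -0.04. The genotype difference in white adipose tissue was -0.31 ± 0.62 (limma adjusted p = 0.765). The highest white adipose value belongs to mutant replicate 2, the array with the high granulocyte and skeletal muscle sums, and without it the difference was -0.98. Without mutant replicate 4, the lowest, the sign turned and the difference was 0.08. Of the 2 dimmer probes of Mmp13, one was at or below 16 on all 8 white adipose arrays and was at least 44.3-fold higher in femur in mutants and at least 34.3-fold higher in wild types. The other, close to 16, differed by 0.67 in mutants (limma adjusted p = 0.0872) and was at least 1.79-fold higher in femur in wild types, whose white adipose arrays were all at or below 16 (limma adjusted p = 0.00746).

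Mmp8, the collagenase of neutrophil granules, was measured in femur alone. It stood at 104, 64.1, 57.6 and 34.1 in mutant femurs, against 56.6, 10.7, 52.6 and 52.2 in wild-type femurs, and was at or below 0 on all 8 white adipose arrays. The genotypes overlapped, with a difference of 0.60 ± 0.46 (limma adjusted p = 0.531) that was 0.16 without wild type replicate 2, the one femur array at or below 16. In mutants Mmp8 was at least 3.76-fold higher in femur than in white adipose tissue, where all 4 arrays were at or below 16 (limma adjusted p = 0.000181). In wild types it was not tested, since only 3 of 8 arrays exceeded 16. Mmp1a, a rodent counterpart of the human collagenase MMP1, stood at 89.1, 85.7, 86.1 and 91.5 in mutant white adipose tissue, against 83.7, 79.7, 77.7 and 72.3 in wild-type white adipose tissue. The 4 mutant arrays all lay above the 4 wild-type arrays, by a narrow margin, and the difference missed the threshold (limma adjusted p = 0.209).

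The gelatinases cut denatured collagen and the collagen of basement membranes. Mmp9, which is made by osteoclasts and neutrophils, behaved like Mmp13 between the tissues. It reached 7768, 6516, 6689.6 and 5757 in mutant femurs, against 5706, 5944, 6189.7 and 6059 in wild-type femurs, and 57.1, 179.99, 86.6 and 92.7 in mutant white adipose tissue, against 67.2, 73.3, 59.2 and 49.2 in wild-type white adipose tissue. The dimmest femur value, 5706, lay far above the brightest white adipose value. The tissue difference was 6.12 ± 0.30 in mutants and 6.60 ± 0.13 in wild types (limma adjusted p = 8.63e-08 and 4.45e-10). All 12 granulocyte markers were higher in femur in both genotypes as well, by a median of 7.23 in mutants and 8.55 in wild types. So were all 4 measured osteoclast markers, by a median of 1.91 in mutants and 1.83 in wild types. The part of either cell type in the result was not tested. The genotype difference of Mmp9 came to 0.15 ± 0.10 in femur (limma adjusted p = 0.479) and 0.63 ± 0.31 in the adipose samples (limma adjusted p = 0.236). The white adipose value rested in part on mutant replicate 2 and was 0.33 without it. All 6 measured granulocyte markers were likewise on the higher side in mutant white adipose tissue, with a median of 0.58, 3 of them at an unadjusted limma p under 0.05 and 0 past the threshold; their part in that value was not tested. In femur, 11 of 12 granulocyte markers were on the higher side in mutants, 4 of them at an unadjusted p under 0.05 and 0 past the threshold; their part in the femur value of Mmp9 was not tested.

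Mmp2, the gelatinase of fibroblasts and other stromal cells, varied little over the 4 groups. Its means were 3112 ± 333 in mutant femurs, 3471 ± 145 in wild-type femurs, 3596 ± 49.96 in mutant white adipose tissue and 3549.8 ± 165 in wild-type white adipose tissue (SD, n = 4 each). The tissue difference was -0.21 ± 0.09 in mutants (limma adjusted p = 0.0585) and -0.03 ± 0.08 in wild types (limma adjusted p = 0.738). In mutants 6 of 12 alternatives of the processing put it past the threshold. The genotype difference came to -0.16 ± 0.10 in femur (limma adjusted p = 0.426) and 0.02 ± 0.07 in the adipose samples (limma adjusted p = 0.882).

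The stromelysins and the macrophage elastase cut a wide range of matrix proteins. Mmp12, the elastase named for macrophages, was a transcript of white adipose tissue. It was at or below 8.59 on every femur array. In white adipose tissue it stood at 319, 168, 152 and 132 in mutants, against 2751, 2005, 518 and 172 in wild types. Of the wild-type arrays 3 lay above all mutant arrays, and wild type replicate 4 fell among them. Mmp12 was at least 11.3-fold lower in femur than in white adipose tissue in mutants (limma adjusted p = 8.88e-07) and at least 52.3-fold lower in wild types (limma adjusted p = 0.0001099). The genotype difference in white adipose tissue, -2.21 ± 0.81, was the largest of any member in that tissue, and it missed the threshold (limma adjusted p = 0.147). Leaving out single arrays moved it between -2.97 and -1.64.

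Mmp3 (stromelysin-1), which is made by stromal cells and chondrocytes, was at 6.42, 29.9, 17.5 and 24.5 in mutant white adipose tissue, against 67.6, 57.1, 28.9 and 32.4 in wild-type white adipose tissue. Only 1 mutant value reached the range of the wild types. Its genotype difference there was -1.03 ± 0.32 (limma adjusted p = 0.122), and its other probes gave -0.95 and -0.58. Leaving out single arrays moved it between -1.23 and -0.82. Femur exceeded white adipose tissue by 1.77 ± 0.24 in mutants (limma adjusted p = 9.32e-05) and by 0.70 ± 0.35 in wild types (limma adjusted p = 0.1005). Its other probes gave 2.24 and 0.73 in mutants, and 1.24 (limma adjusted p = 0.0202) and 0.04 in wild types. Mmp11 (stromelysin-3) had the opposite side: it was lower in femur, with a difference of -2.15 ± 0.15 in mutants and -1.86 ± 0.11 in wild types (limma adjusted p = 9.19e-07 and 3.9e-07). In femur it stood at 33.7, 27.2, 24.4 and 37.8 in mutants, against 36.97, 37.6, 44.3 and 35.2 in wild types. Its genotype difference was -0.34 ± 0.15 there (limma adjusted p = 0.296). The 3 measured genes of this group all lay on the lower side in mutant white adipose tissue, with a median of -1.03.

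The membrane-type MMPs are anchored in the plasma membrane. Mmp14, which cuts collagen at the cell surface and activates pro-MMP2, averaged 1901 ± 191 in mutant femurs and 2012 ± 225 in wild-type femurs, and 1133 ± 103 in mutant and 1225 ± 92.3 in wild-type white adipose tissue (SD, n = 4 each). It was higher in femur by 0.75 ± 0.10 in mutants and 0.71 ± 0.11 in wild types (limma adjusted p = 0.000128 and 0.000298). By genotype it differed by -0.08 ± 0.11 in femur and -0.11 ± 0.10 in the adipose samples (limma adjusted p = 0.755 and 0.474). Mmp16 was seen in femur, at 24.3, 32.1, 67.3 and 69.8 in mutants, against 61.5, 83.7, 54.9 and 70.5 in wild types, and exceeded 16 on 1 of 8 white adipose arrays. Mutant replicates 1 and 2 lay below every wild-type femur, and the other mutants lay among the wild types. Its genotype difference was -0.61 ± 0.34 (limma adjusted p = 0.392). In mutants it was at least 2.73-fold higher in femur (limma adjusted p = 0.00253), a call that was lost with a floor of 32 (limma adjusted p = 0.142). In wild types Mmp16 was higher in femur by 2.04, a call kept in all 11 alternatives. Leaving out single animals moved it between 1.93 and 2.13 (limma adjusted p of at most 4.16e-05). The 3 measured membrane-type MMPs (Mmp14, Mmp16 and Mmp17) were on the lower side in mutant femurs, with 0 at an unadjusted limma p under 0.05. Mmp17 differed between tissues by 0.12 ± 0.25 in mutants and 0.63 ± 0.16 in wild types (limma adjusted p = 0.677 and 0.00651).

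Mmp23, an MMP with its own type of prodomain and a transmembrane segment, had opposite genotype differences in the 2 tissues. In femur it stood at 184, 159, 188 and 208 in mutants, against 237, 254, 222 and 246 in wild types. In white adipose tissue it stood at 537, 555, 512 and 554 in mutants, against 368, 417, 392 and 494 in wild types. The groups did not overlap in either tissue, all 4 mutant femurs below the wild types and all 4 mutant white adipose samples above them, and among the members Mmp23 alone had groups apart in opposite directions. Of all genes, 5.50% were apart on the lower side in femur and 8.53% on the higher side in white adipose tissue. The share of all genes apart in opposite directions was not computed. The difference came to -0.38 ± 0.10 in femur (limma adjusted p = 0.178) and 0.38 ± 0.10 in the adipose samples (limma adjusted p = 0.112), neither past the threshold. The difference between the tissues, -0.76 ± 0.15 with the SE of the fit of all 16 arrays, passed (limma adjusted p = 0.02798). The call was lost, at limma adjusted p-values of up to 0.128, without wild type replicate 1 or 2 or any 1 of the 4 mutants. The estimate stayed between -0.83 and -0.67 in the 8 fits that leave out 1 animal. Mmp23 was lower in femur than in white adipose tissue in both genotypes, with a difference of -1.55 ± 0.10 in mutants and -0.79 ± 0.11 in wild types (limma adjusted p = 4.45e-07 and 0.000146). The remaining measured MMPs were Mmp19 and Mmp28. Mmp28 (epilysin) was higher in femur by 0.90 ± 0.18 in mutants (limma adjusted p = 0.00144) and differed by 0.58 ± 0.30 in wild types (limma adjusted p = 0.103). Mmp19 differed between genotypes by 0.38 ± 0.31 in femur and -0.50 ± 0.28 in the adipose samples (limma adjusted p = 0.563 and 0.277).

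The 4 inhibitors did not move together. Timp1, which is secreted by many cells and induced in inflammation, stood at 629, 550.1, 754 and 626 in mutant femurs, against 517, 857, 721 and 919 in wild-type femurs. It stood at 256, 198, 197 and 183 in mutant white adipose tissue, against 596, 639, 291 and 310.2 in wild-type white adipose tissue. The genotypes overlapped in femur, whereas all 4 mutant white adipose arrays lay below all wild-type arrays. The difference in white adipose tissue was -1.06 ± 0.28 and missed the threshold (limma adjusted p = 0.112), and a second probe gave -1.17. In femur it was -0.21 ± 0.18 (limma adjusted p = 0.5899). Timp1 was the inhibitor that was higher in femur, by 1.62 ± 0.13 in mutants (limma adjusted p = 3.37e-06) and by 0.77 ± 0.30 in wild types (limma adjusted p = 0.0419). The call in wild types was lost in 7 of 13 alternatives, among them the fit with the animal as a block (limma adjusted p = 0.0614) and the second probe (limma adjusted p = 0.0697).

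Timp4, known in heart and fat, was on the other side. It stood at 249, 239, 174 and 350.00 in mutant femurs, against 115, 175, 143 and 201 in wild-type femurs, and at 6319.6, 5891, 5058 and 5069.5 in mutant white adipose tissue, against 7988, 6753, 6447 and 7783 in wild-type white adipose tissue. All mutants lay below all wild types in white adipose tissue, and in femur 3 of 4 mutants lay above all wild types. It was lower in femur, with a difference of -4.50 ± 0.19 in mutants and -5.54 ± 0.17 in wild types (limma adjusted p = 3.87e-08 and 6.79e-09). The genotype difference came to 0.66 ± 0.23 in femur (limma adjusted p = 0.228) and -0.38 ± 0.11 in the adipose samples (limma adjusted p = 0.122). The difference between the tissues was 1.04 ± 0.28 and passed (limma adjusted p = 0.0487). That call was lost in 10 of 16 alternatives, at limma adjusted p-values of up to 0.166, 7 of them by leaving out 1 animal other than wild type replicate 3. All 9 adipocyte markers were also lower in femur in both genotypes, and their part in the tissue difference was not tested.

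Timp3, which is bound to the matrix and also inhibits ADAM17 and the ADAMTS aggrecanases, was at 4025, 3552, 4605 and 4097 in mutant white adipose tissue, against 2469, 2693, 3248 and 3307 in wild-type white adipose tissue. All 4 mutants lay above all 4 wild types, by 0.48 ± 0.13 (limma adjusted p = 0.112), and a dimmer probe gave 0.19. In femur the values were 2778, 2902, 2857 and 2597 in mutants, against 2627, 3347, 2987 and 2979 in wild types, with overlapping groups and a difference of -0.10 ± 0.10 (limma adjusted p = 0.642). The difference between the tissues was -0.58 ± 0.16 and fell just short of the threshold (limma adjusted p = 0.0532). Among mutants Timp3 was lower in femur, with a difference of -0.54 ± 0.10 (limma adjusted p = 0.000653). Among wild types the brightest probe showed 0.03 ± 0.13 (limma adjusted p = 0.825), while the dimmer probe was lower in femur, with a difference of -0.78 (limma adjusted p = 0.00183). Timp2, which both inhibits MMPs and takes part in activating pro-MMP2, was lower in femur, with a difference of -1.76 ± 0.09 in mutants and -1.96 ± 0.10 in wild types (limma adjusted p = 9.51e-08 and 1.62e-07). It averaged 8813 ± 718 in mutant white adipose tissue and 10304 ± 628 in wild-type white adipose tissue (SD, n = 4 each). Its genotype difference was -0.23 ± 0.09 there (limma adjusted p = 0.1697) and -0.02 ± 0.10 in femur (limma adjusted p = 0.927). Of the 4 inhibitors, 3 lay on the lower side in mutants in each tissue, Timp4 being the exception in femur and Timp3 in white adipose tissue.

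Of the ADAMs with a known protease, Adam15 had the clearest tissue preference. It stood at 586, 539, 540.2 and 574 in mutant femurs, against 774, 819, 566 and 728 in wild-type femurs, and at 4077, 4242, 3344 and 3825 in mutant white adipose tissue, against 3307, 3251, 3649.99 and 3390.5 in wild-type white adipose tissue. Among the wild-type femurs replicate 3 alone fell within the range of the mutants. Adam15 was lower in femur, with a difference of -2.79 ± 0.09 in mutants and -2.25 ± 0.13 in wild types (limma adjusted p = 9.63e-09 and 2.85e-07). A dim second probe gave -1.36 in mutants and -0.45 in wild types (limma adjusted p = 0.0470 in wild types). Its genotype difference in femur was -0.35 ± 0.12 (limma adjusted p = 0.223). Without wild type replicate 3 it was -0.47 and passed (limma adjusted p = 0.0316), the single call of a member that leaving out 1 array gave in femur. The white adipose genotype difference was 0.18, and the difference between the tissues was -0.54 ± 0.16 (limma adjusted p = 0.0591), which passed in 7 of the 17 alternatives.

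Adam8, a protease of leukocytes and osteoclast precursors, showed the same unevenness among the wild-type white adipose arrays as Mmp12. It stood at 16.3, 30.8, 32.4 and 20.4 in mutants, against 146, 147, 36.6 and 31.4 in wild types, where replicates 1 and 2 were high and the other pair lay close to the mutants. The genotype difference there was -1.55 ± 0.56 (limma adjusted p = 0.143), and a second probe gave -1.64. In femur it stood at 146, 97.2, 144 and 123 in mutants, against 114, 105, 101 and 141 in wild types, with the genotypes mixed. Femur exceeded white adipose tissue by 2.39 ± 0.24 in mutants (limma adjusted p = 1.14e-05) and by 0.70 ± 0.52 in wild types (limma adjusted p = 0.248).

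Adam17, the enzyme that releases tumour necrosis factor from the cell surface, was at 503, 493, 523 and 590.1 in mutant white adipose tissue, against 681, 654, 595 and 595 in wild-type white adipose tissue. The mutants all lay below the wild types, by a narrow margin and with a difference of -0.26 ± 0.09 (limma adjusted p = 0.142). Adam33 was at or below 16 in all 4 mutant femurs and above 16 in all 4 wild-type femurs, where it ranged 18.3 to 24.2. It was thus at least 1.27-fold lower in mutant femurs (limma adjusted p = 0.191). It stood at 58.7, 68.1, 78.8 and 61.7 in mutant white adipose tissue, against 40.7, 42.1, 52.6 and 76.9 in wild-type white adipose tissue. It was lower in femur at least 4.15-fold in mutants (limma adjusted p = 9.98e-08) and with a difference of -1.34 ± 0.20 in wild types (limma adjusted p = 0.000267). Adam19 (meltrin beta) was higher in femur by 1.15 ± 0.14 in mutants and 0.87 ± 0.10 in wild types (limma adjusted p = 3.83e-05 and 4.16e-05), and Adam9 (meltrin gamma) was lower in femur, with a difference of -1.03 ± 0.26 in mutants and -1.16 ± 0.17 in wild types. Adam12 (meltrin alpha) was lower in femur, with a difference of -0.44 ± 0.12 in wild types (limma adjusted p = 0.00993) and differed by -0.19 ± 0.24 in mutants (limma adjusted p = 0.497).

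The ADAMs without an active site act as binding proteins on neurons and other cells. Adam23 stood at 99.96 ± 10.5 in mutant femurs and 116 ± 37.1 in wild-type femurs, and at 848 ± 85.5 in mutant and 873 ± 34.4 in wild-type white adipose tissue (SD, n = 4 each). It was lower in femur, with a difference of -3.08 ± 0.11 in mutants and -2.97 ± 0.22 in wild types (limma adjusted p = 1.33e-08 and 1.69e-06). A second probe, at or below 16 on all femur arrays, was at least 5.17-fold lower in femur in mutants and at least 6.09-fold lower in wild types, and another, close to 16, differed by -0.40 in wild types (limma adjusted p = 0.189). Adam22 was close to the floor, at 21.9, 22.7, 20.6 and 23.1 in mutant white adipose tissue, against 24.9, 32.01, 30.7 and 29.4 in wild-type white adipose tissue. These groups did not overlap, with a difference of -0.40 ± 0.10 (limma adjusted p = 0.112). Of the ADAMs known mostly from testis and epididymis, 3 (Adam7, Adam24 and Adam26a) were measured in white adipose tissue, where none exceeded 27.4, and 0 in femur. In male mice white fat can be taken from beside the epididymis. The summed intensity of 5 epididymis markers was 94.00 to 123 in mutant white adipose tissue and 97.4 to 116 in wild-type white adipose tissue. Lcn5, Lcn8 and Gpx5 were at or below 16 on every white adipose array.

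The ADAMTS enzymes that cut proteoglycans such as aggrecan and versican were mostly lower in femur than in white adipose tissue. Adamts5, the main aggrecanase of mouse cartilage, stood at 197, 158, 186 and 168 in mutant femurs, against 93.9, 197, 214 and 251 in wild-type femurs. It stood at 1875, 1684, 1377 and 1053 in mutant white adipose tissue, against 3302, 3228, 2443 and 2484 in wild-type white adipose tissue. All 4 mutant white adipose arrays lay below all wild-type arrays, and the femurs overlapped. The genotype difference in white adipose tissue was -0.96 ± 0.19, a 1.94-fold difference in mean level, and had the smallest p of all members there (limma adjusted p = 0.112). It stayed between -1.07 and -0.80 when single arrays were left out. Adamts5 was lower in femur, with a difference of -3.05 ± 0.18 in mutants and -4.00 ± 0.29 in wild types (limma adjusted p = 2.53e-07 and 1.51e-06).

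Adamts1, Adamts4 and Adamts15 were lower in femur too. The differences in mutants were -1.99 ± 0.25, -1.58 ± 0.14 and -1.67 ± 0.15, and those in wild types -2.31 ± 0.29, -1.07 ± 0.17 and -1.40 ± 0.30, in that order of genes, with limma adjusted p-values of at most 0.00221. Adamts4 stood at 106, 78.4, 72.4 and 86.3 in mutant femurs, against 77.7, 139.7, 111 and 115 in wild-type femurs, overlapping, with a genotype difference of -0.36 ± 0.19 (limma adjusted p = 0.371). Of the 5 measured proteoglycan-cleaving ADAMTS, 4 were lower in femur in each genotype and 0 were higher, Adamts8 missing the threshold in both. Of all genes, 41.0% were called lower in femur in mutants and 37.8% in wild types. Of the other ADAMTS, Adamts16 was lower in femur at least 2.77-fold in mutants and with a difference of -1.89 ± 0.15 in wild types, and Adamts7 and Adamts19 were lower in femur in both genotypes. Adamts13, which cuts von Willebrand factor, differed between tissues by 0.05 ± 0.19 in mutants and 0.19 ± 0.22 in wild types (limma adjusted p = 0.813 and 0.449). Adamts3, the procollagen N-proteinase on the array, did not exceed 16 on any array.

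**Figure D4:**
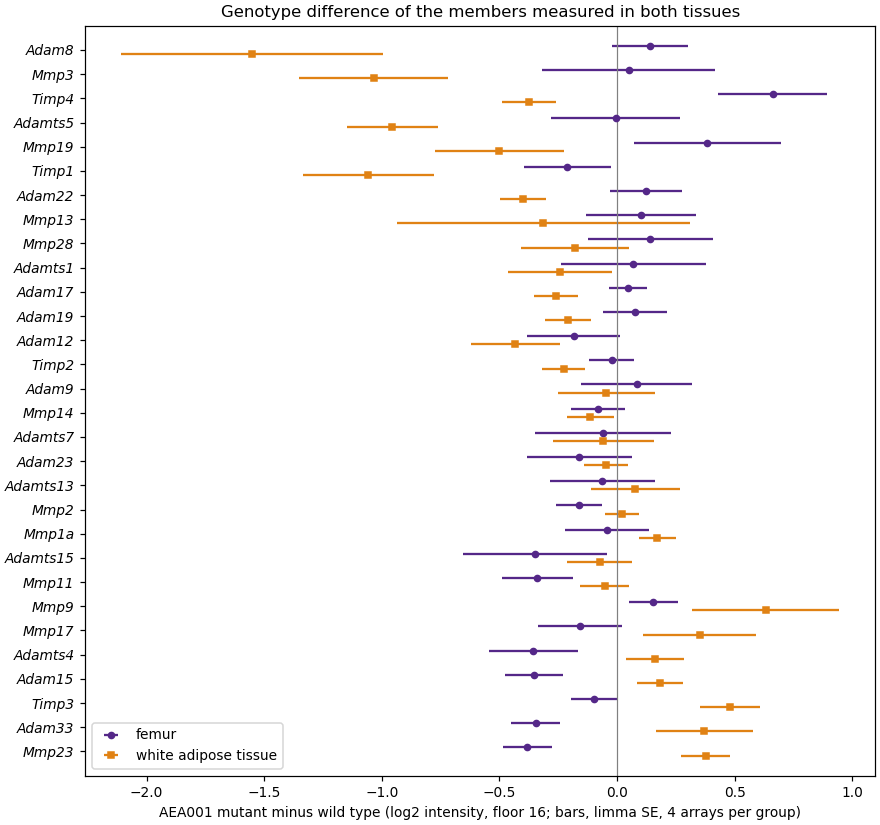
Genotype difference (AEA001 mutant minus wild type, log2 intensity with a floor of 16) of the 30 members measured in both tissues, in femur (purple circles) and white adipose tissue (orange squares), each by its brightest probe in that tissue, with bars for the limma SE from 4 arrays per group. Genes are ordered by the gap between the tissues; Mmp23, Adam33 and Timp3 at the bottom lie on opposite sides of 0, and Adam8, Mmp3, Adamts5 and Timp1 lie at -0.96 or below in white adipose tissue.

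The members with the widest genotype differences in white adipose tissue were uneven within the wild types. Mmp12, Adam8, Mmp3 and Timp1 were highest on the arrays of wild type replicates 1 and 2, at 2751 and 2005 for Mmp12 against 518 and 172 on the other wild-type arrays. Macrophage markers had the same shape: the sum of the 7 on the array, of 10 listed, was 8927, 9146, 8226 and 7467 in mutants, against 13532, 12179.7, 9643 and 10575 in wild types. Their groups did not overlap, and all 7 measured markers were on the lower side in mutants, 4 of them at an unadjusted limma p under 0.05 and 0 past the threshold. T cell markers, summed over 4, were also high on the wild type replicates 1 and 2, with 195, 255, 209 and 223 in mutants, against 699.7, 627, 282 and 235 in wild types. Sums of 7 osteoclast markers shared this shape, with 713, 701, 552 and 535 in mutants, against 1724, 1525, 830 and 764 in wild types. But 4 of the 7 (Atp6v0d2, Calcr, Dcstamp and Ocstamp) exceeded 16 on no white adipose array. Of the 3 measured there, 1 was on the higher side in mutants and 2 on the lower. At an unadjusted limma p under 0.05 was 1 of the lower, with 0 past the threshold. The sums of 8 osteoblast markers had this shape too, with 2825, 2899, 2066 and 1659 in mutants, against 5067, 4477, 2895 and 2939 in wild types. Of these 8, however, 5 (Bglap, Ibsp, Sp7, Dmp1 and Phex) exceeded 16 on no wild-type white adipose array. Among the 3 measured in white adipose tissue, 2 were on the higher side in mutants. The other was lower, by -0.80 and at an unadjusted limma p under 0.05, with 0 past the threshold. Of 8 fibroblast and stromal markers 4 were on each side in mutants. At an unadjusted limma p under 0.05 were 3 of the lower and 1 of the higher, with 0 past the threshold. Of 9 adipocyte markers 7 were on the higher side in mutants, 4 of them at an unadjusted limma p under 0.05, and 2 on the lower side, 1 of them so, with 0 past the threshold. Their summed intensity, given above, overlapped between the genotypes. The part of these cells in the lower Mmp12, Adam8, Mmp3, Timp1 and Adamts5 of mutants was not tested. Without wild type replicate 1 the genotype difference of Mmp12 was -1.64, without replicate 1 or 2 that of Adam8 was -1.20, and without replicate 2 that of Timp1 was -0.87.

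**Figure D5:**
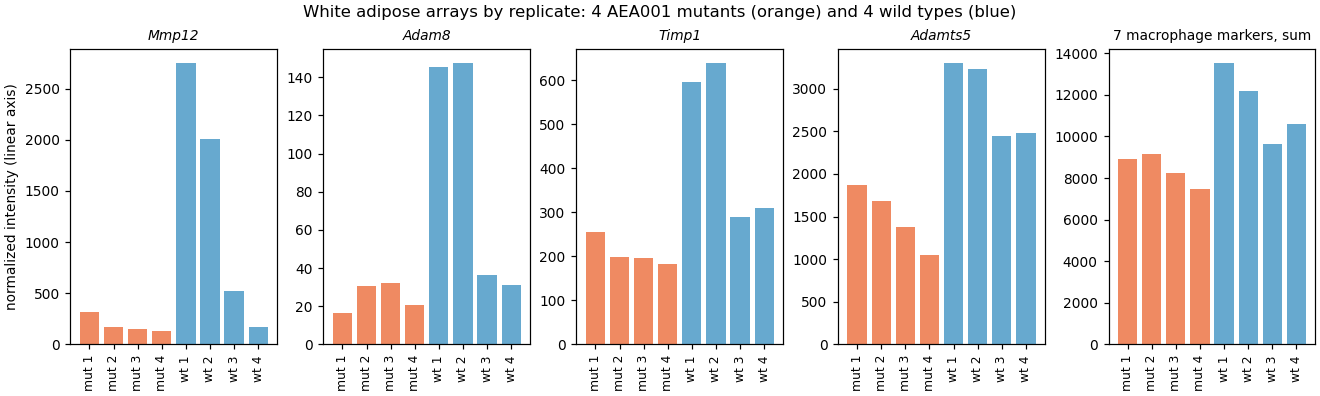
Normalized intensity (linear axes from 0) of Mmp12, Adam8, Timp1 and Adamts5 and the summed intensity of 7 macrophage markers on each white adipose array, AEA001 mutants (orange, mut 1 to mut 4) left of wild types (blue, wt 1 to wt 4). Wild type replicates 1 and 2 carry the tallest bars in all 5 panels.

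In femur the macrophage markers ran the other way: all 7 were on the higher side in mutants, each at an unadjusted limma p under 0.05 and 0 past the threshold, with sums of 6293, 7731, 7180.3 and 6912 in mutants, against 5224, 3646, 6617 and 4933 in wild types. Of 7 osteoblast markers 5 were on the lower side in mutant femurs, 3 at an unadjusted limma p under 0.05 and 0 past the threshold. Mmp13, Mmp14 and Mmp16 lay among these shifts with differences of 0.10, -0.08 and -0.61, and the part of bone cell numbers in them was not tested. Beyond the 10 femur members of smallest p, the other 24 had genotype differences between -0.35 and 0.38 and limma adjusted p-values of 0.563 or more. Beyond the 10 of smallest p in white adipose tissue, the other 26 lay between -0.50 and 0.63, with limma adjusted p-values of 0.17 or more.

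Regulators of the enzymes that the symbols do not cover were tested in the same fits. They comprised activating convertases, the plasminogen system, membrane and plasma inhibitors, tetraspanins and inactive rhomboids that steer ADAM10 and ADAM17, and relatives such as Bmp1. In femur 0 of 21 measured regulators passed limma's threshold and 1 had an unadjusted p under 0.05: Reck, a membrane inhibitor of MMPs, at 418, 373, 368 and 344 in mutants, against 296, 237, 343 and 313 in wild types (0.35 ± 0.13, limma adjusted p = 0.236). Every mutant femur exceeded every wild-type femur, by a narrow margin. Of all genes in femur, 15.7% had an unadjusted limma p under 0.05. In white adipose tissue 0 of 20 passed. At an unadjusted limma p under 0.05, 2 were on the lower side and 0 on the higher, beside 12.2% and 13.3% of all genes. Pcolce2, which enhances the removal of the procollagen C-propeptide, stood at 692, 490.4, 427 and 298 in mutants, against 2038, 1813, 803 and 810.3 in wild types (-1.45 ± 0.38, limma adjusted p = 0.112). Bmp1, the protease that removes that propeptide, differed by -0.47 ± 0.10 (limma adjusted p = 0.112). By these brightest probes the groups did not overlap in either gene. Pcolce2 was highest in wild type replicates 1 and 2 as well, and its difference lay between -1.66 and -1.21 when single arrays were left out. Its other probe gave -0.78 (limma adjusted p = 0.143), with overlapping groups. Of the other probes of Bmp1, one gave -0.46 with the groups apart (limma adjusted p = 0.111), and the others gave -0.13 and 0.02 with overlapping groups. Reck and Pcolce2 were picked for description after their values were seen.

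Between the tissues, 8 regulators were higher and 7 lower in femur of 21 tested in mutants, and 8 higher and 9 lower of 20 tested in wild types. Of all genes, 35.6% were higher and 41.0% lower in mutants, and 36.6% and 37.8% in wild types. Tspan33, a tetraspanin partner of ADAM10, was higher in femur by 4.35 ± 0.16 in mutants and 4.90 ± 0.20 in wild types (limma adjusted p = 1.71e-08 and 3.81e-08). Tspan17, another such partner, was lower in femur, with a difference of -2.18 ± 0.10 and -2.36 ± 0.10 in the same order of genotypes, and so was Rhbdf1, an inactive rhomboid that escorts ADAM17, with -1.80 ± 0.09 and -1.55 ± 0.11. Tspan14, also a partner of ADAM10, was higher in femur by 0.51 ± 0.12 in mutants and 0.43 ± 0.09 in wild types (limma adjusted p = 0.00321 and 0.00173). Furin, which removes the propeptide of membrane-type MMPs and ADAMs, was lower in femur, with a difference of -0.47 ± 0.08 in mutants and -0.54 ± 0.11 in wild types. Its genotype difference came to 0.05 ± 0.10 in femur and -0.02 ± 0.10 in the adipose samples (limma adjusted p = 0.835 and 0.922). A dimmer probe of Furin gave tissue differences of -1.51 in mutants and -1.18 in wild types, and genotype differences of -0.35 in femur (limma adjusted p = 0.350) and -0.02 in the adipose samples.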

How the data were processed

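Bead array intensities of 16 samples were used as deposited by the authors: 25697 probes, with a normalized intensity per probe and array, and the submitters' processing notes name GenomeStudio 2011.1. The method of normalization is not given in the sources used here. Between 25.3% and 25.4% of the probes on an array were below 0. A second deposited table, not normalized, held 32 columns of signal and detection p-values that could not be matched to samples and was not used. Members were named from the platform annotation. Other genes took the RefSeq symbol of their gene identifier where it had one, and otherwise the platform symbol.

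Intensities below 16 were set to 16 and log2 was taken. Probes above 16 on at least 4 of the 8 arrays of a comparison were tested by the moderated linear model of limma 3.58.1, run in R 4.3.3, with p-values adjusted by Benjamini-Hochberg over all tested probes. A gene is given by its brightest tested probe. Folds against a group at or below 16 on all its arrays are bounds against 16. The fit was tested on simulated data. Members were named by these rules: the 10 of smallest p for genotype in each tissue, the 5 of smallest p for the difference between tissues, the 12 largest tissue differences in each direction among those called in both genotypes, every Timp, up to 4 members of highest signal per role and 6 regulators of highest signal; Adam12 and members without a signal were added for completeness. The members and all lists were chosen with earlier results of these data known. The labels give both tissues of a mouse the same identifier, so the tissues are paired by animal. The tissue differences within a genotype were nevertheless fitted without this pairing, and the fit with the replicate block was an alternative. Same-animal arrays deviated together with r of -0.24 to 0.03, and the fit over both tissues had a consensus correlation of -0.0694. Alternatives were the filter, the floor, cyclic loess, a variance trend, array weights, 1 fit of all arrays, the replicate block, other probes and leaving out arrays.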

Additional observations from a re-analysis of the deposited data

Results flagged for a closer look

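Of 132 groups of 4 arrays looked at, 7 had 1 array far from the other 3 by Dixon's test, and chance alone puts about 1 group in 20 past that limit. Mmp13 had 229.6 in white adipose tissue of AEA001 mutant replicate 2, against 25.4 to 44.9 in the other mutants, on the array that also carried granulocyte transcripts. Mmp1a had 45.8 in the femur of mutant replicate 2, against 70.3 to 71.6 in the others. Adam7, known from the epididymis, had -8.17 in white adipose tissue of mutant replicate 3, against 16.5 to 19.4. Mmp8 had 10.7 in the femur of wild type replicate 2, against 52.2 to 56.6 in the other wild types. Adamts1 had 54.8 in the femur of wild type replicate 4, against 19.95 to 24.6. Mmp11 had 122 in white adipose tissue of wild type replicate 1, against 143.8 to 148. Timp2 had 9367 in white adipose tissue of wild type replicate 3, against 10538 to 10676.

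The genotype difference differed between femur and white adipose tissue for 2 members, by the limma fit of all 16 arrays. For Mmp23 it was 0.76 log2 units lower in femur (-0.76, limma adjusted p = 0.028), and for Timp4 it was 1.04 higher (limma adjusted p = 0.0487). Both calls were lost when single animals were left out. Macrophage markers differed in the same direction as Timp4, 3 of 7 past the threshold, beside 4.80% of all genes. Of 9 adipocyte markers 6 went the other way and 3 the same way as Timp4, with a median of -0.17 and 0 past the threshold. The part of these cells in the difference of Timp4 was not tested.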

How the results depend on the processing

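Of 79 counts of called members under an alternative, 65 stayed within 1.5 times the value reported. For the genotype effect in femur 1 member (Adam15) passed without wild type replicate 3, and the count ranged from 0 to 1 over the 8 arrays left out. In white adipose tissue 6 members passed in 1 fit of all 16 arrays (Adam8, Mmp23, Mmp12, Adamts5, Timp3 and Timp1), with 1181 probes of the whole array instead of 2, and 0 to 0 when single arrays were left out. The count between tissues ranged from 28 to 29 in mutants and from 22 to 27 in wild types when single animals were left out. With the replicate block, which pairs same-numbered arrays, the counts were 0 in femur, 0 in white adipose tissue, 29 in mutants and 23 in wild types, the tissue call of Timp1 in wild types being the one lost; same-numbered arrays of different genotypes deviated together with r of -0.07 to 0.05 in femur and -0.05 to 0.32 in white adipose tissue. For the difference between tissues of the genotype effect, 1 member passed with no filter, 4 with a filter on every array, with a variance trend or with no replicate block, 7 with array weights, and 0 to 4 when 1 animal was left out. The probes of the whole array that passed numbered 837 as reported, and 178, 1145, 1350, 1197 and 2218 in the first 5 of these alternatives, and 1 to 2702 when 1 animal was left out.

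Of 1332 values of single genes, 1257 kept direction and side of the threshold, 26 lost and 32 gained a call and 17 reversed; the cause was not tested. The values of Reck, Pcolce2 and Bmp1 among them were computed after seeing the data: Pcolce2 passed (limma adjusted p = 0.0302) when all 16 arrays were fitted at once, and Bmp1 was 0.024 by another probe. In femur, Timp2 was 0.0094 without the animals of the shared identifier and -0.076 to 0.033 with single arrays left out, Mmp13 was -0.15 to 0.24 and -0.044 by another probe, and Timp3 was 0.038 by its other probe. In white adipose tissue, Mmp2 was -0.0055 with cyclic loess, -0.0037 without the shared identifier and -0.0042 to 0.048 with single arrays left out, and Mmp13 was -0.98 to 0.0801. Between the tissues in wild types, Timp3 was -0.061 to 0.094 and -0.78 by its other probe. For the difference between tissues of the genotype effect, Mmp14 was -0.033 to 0.12 and Mmp13 -0.014 to 1.04, or -0.18 by another probe. With 4 arrays per group and probes near 16, small differences of dim members such as Adam22, Adam33 and Mmp16 are at the limit of what the arrays measure.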
